A study of Mus musculus with 64 samples.

Results

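The genes described here are those of the cell cycle and of proliferation, from the cyclins that carry a cell out of rest to the proteins that part the daughter cells. The list named 44 genes, and 42 of them were among the 16913 genes of the deposited count table. Ccnb1 and Bub1 were not analysed here. All 42 genes passed the filter on low counts, and none was at 0 counts in any of the 64 libraries. The list was sorted by role into 2 G1 cyclins, 4 genes of G1/S control, 9 of origin licensing and the replicative helicase, 6 of DNA synthesis and nucleotide supply, 7 of G2/M control, 10 of chromosomes, kinetochore and spindle, and 4 of the midzone and cytokinesis. The last 3 roles are called mitotic genes below and hold 21 members, a grouping made after the values were seen.

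Each library held total RNA of the heart of C57BL/6J mice and is labelled a biological replicate. Transgenic mice (TG) carried cTnT-delta160E, a cardiac troponin T that lacks a glutamate and models hypertrophic cardiomyopathy, and the controls were non-transgenic (nTG). Trained mice underwent high-intensity interval training (HIIT) on a treadmill for 6 weeks, on 3 days per week, in sessions of 31 minutes with 4 intervals at 85% and 4 at 50% of the average speed of the group, and sedentary mice (Sed) did not exercise. In males there were 7 nTG sedentary, 8 nTG trained, 9 TG sedentary and 8 TG trained hearts. In females there were 8, 10, 8 and 6. The labels give no age, and the promoter that drives the transgene is not given in the sources used here. Libraries 1 to 32 were all male and 33 to 64 all female, so sex and library order cannot be told apart.

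The gene table and its column names did not go together. Taken by name, 32 gene columns contradicted the labelled sex and 30 the labelled genotype. Gene columns were therefore joined to libraries through the lncRNA table, by the correlation of transcripts that both tables hold. All 64 pairs were best in both directions (r of 0.599 to 0.863, against at most 0.404 for the next best column), and after this join no library contradicted its sex or genotype. Tnnt2, which encodes cardiac troponin T, was at 6538 to 11721 CPM (counts scaled to a common library total with TMM factors) in the joined TG libraries and at 2561 to 3589 CPM in the nTG libraries. Cardiomyocyte markers, 7 of 7 in the table, summed to between 97279 and 132590 CPM in every library. All values below rest on this join, and library totals ran from 34574813 to 67068562 counts.

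D-type cyclins answer growth signals in G1 and release E2F factors, which switch on the genes of replication. The Mcm2-7 helicase is loaded at origins by Cdc6 and Cdt1 and fires in S phase. Later, FOXM1 and MuvB complexes raise a mitotic set that condenses chromosomes, builds the spindle and cuts the cell. Adult mouse cardiomyocytes have largely left the cell cycle, and endothelial cells, fibroblasts and immune cells of the heart can divide. In bulk tissue, fewer cells of a type and less RNA per cell cannot be told apart.

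Promoters are shown for 3 members that the results below turn on: Cenpf, which was lower in TG hearts, Top2a, with the largest rise among the members called for the mean of the genotype strata, and Mcm3, called for both genotype and training. Each stretch holds the 250 bases before the RefSeq gene start (GRCm38.p6), read on the strand of the gene. Capitals mark CCAAT, the box bound by NF-Y, or its reverse complement ATTGG, and TTTGAA or TTCAAA, the letters of the CHR element through which MuvB complexes bind mitotic genes. Cenpf lies on chr1:189688087-189688336, Top2a on chr11:99024190-99024439 and Mcm3 on chr1:20820313-20820562, all on the minus strand.
Cenpf: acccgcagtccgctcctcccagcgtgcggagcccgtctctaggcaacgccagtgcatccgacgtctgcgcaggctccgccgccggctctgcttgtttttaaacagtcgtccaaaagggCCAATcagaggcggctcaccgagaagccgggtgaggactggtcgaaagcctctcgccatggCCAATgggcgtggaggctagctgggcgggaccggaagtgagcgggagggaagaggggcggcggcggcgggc
Top2a: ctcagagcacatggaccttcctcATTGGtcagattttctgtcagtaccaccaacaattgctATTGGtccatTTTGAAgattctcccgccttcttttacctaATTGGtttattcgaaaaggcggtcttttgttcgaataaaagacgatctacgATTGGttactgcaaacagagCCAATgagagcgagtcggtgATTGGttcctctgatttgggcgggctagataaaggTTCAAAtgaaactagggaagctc
Mcm3: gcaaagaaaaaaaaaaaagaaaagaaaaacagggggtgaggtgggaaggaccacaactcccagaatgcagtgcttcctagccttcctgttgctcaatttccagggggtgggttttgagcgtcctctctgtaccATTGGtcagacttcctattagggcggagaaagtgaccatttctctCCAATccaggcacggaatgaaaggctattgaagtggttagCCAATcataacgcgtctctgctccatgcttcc

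These windows differed in their letters. The upstream bases of Top2a held 8 matches and those of Mcm3 3. Anln, also called for the mean of the genotype strata, held 0 matches in its upstream bases and is not printed. Cenpf held 2 matches, both CCAAT on the gene's strand, and a match to TTTGAA lay after the gene start, outside the printed stretch. RefSeq promoters of 300 bases, reaching 50 bases past the start, matched 33 of the 42 members, and 15 of them (45.5%) held TTTGAA on either strand, against 17.9% of 32851 promoters. CCAAT was found in 24 of the 33 (72.7%, against 37.4%). The E2F letters TTTGGCGC were found in 4 (12.1%, against 0.514%) and TTCCCGCC in 3 (9.09%, against 2.19%). Mcm3 was among the members with each of these E2F strings, in bases outside its printed stretch. Of the 11 members called higher in TG hearts below that had a promoter, 6 held TTTGAA and 7 held CCAAT. A member was counted once if any of its promoters held the letters, while the share of all promoters counted each promoter. These shares are therefore not counted alike. The counts describe letters and not bound sites.

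Levels per length set the G1 cyclins apart from the rest. Ccnd2 averaged 22.2 and Ccnd1 20.002 CPM per kb of exon over the 64 libraries. Pcna, the sliding clamp of DNA polymerase, followed at 5.04 CPM per kb. The helicase subunits Mcm4 and Mcm7 were at 1.95 and 1.87 CPM per kb. Cenpf, a large kinetochore and nuclear matrix protein, came next at 1.84 CPM per kb and was the highest of the mitotic genes. Mki67, the coat of mitotic chromosomes and the usual mark of cycling cells, was at 0.871, and Top2a, which untangles replicated DNA, at 0.261 CPM per kb. The lowest member was Cdk1, the mitotic kinase, at 0.0782 CPM per kb. Ccnb2, Aurkb and Cdk1 had libraries with only 2, 3 and 3 counts, so their single values are coarse.

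**Figure D1:**
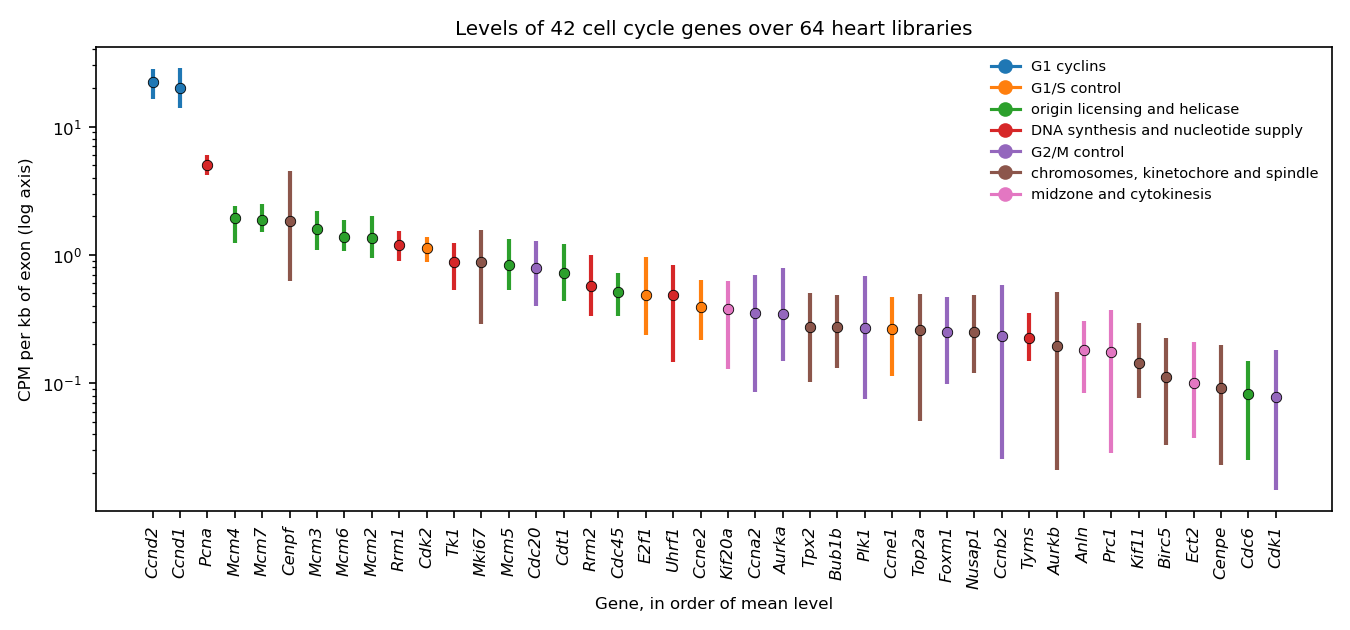
Mean level of each gene (point) and its range over 64 libraries (line), in CPM per kb of exon on a log axis, in order of the mean and coloured by role. The 2 D-type cyclins lie above all others, and Cenpf ranges widely around 1.84 CPM per kb.

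Some members share sequence with other genes. The counting was not stated to use strand, and Tk1, Ccna2, Ccnd1, Kif20a, Nusap1, Prc1, Mcm7, Cdc45, Cdk2, Cdc20 and Ccne2 overlap a protein-coding gene on the opposite strand, and Cdt1 and Foxm1 one on the same strand, so their values may hold reads of that gene. Cenpf overlaps a processed pseudogene, Gm37239, on the opposite strand. Ccnb2 has a pseudogene in the table, and its counts are uncertain. The annotation also names pseudogenes of Tyms and Pcna, which were not analysed here, and Kif11 overlaps 2 processed pseudogenes.

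The clearest difference between genotypes was in Cenpf, the one member that fell in TG hearts, in 3 of the 4 strata of sex and training. Training pairs and genotype pairs were compared within a sex, and a stratum is 1 sex with 1 training state. In sedentary males, nTG libraries ranged from 27.7 to 48.9 CPM (median 31.9) and TG libraries from 10.2 to 26.4 CPM (median 14.5). These groups did not overlap. The log2 fold change was -1.07 ± 0.27 (SE, edgeR quasi-likelihood F test with Benjamini-Hochberg adjustment over all genes, adjusted p = 0.0022). Trained females also did not overlap, with 26.4 to 69.6 CPM (median 43.2) in nTG and 9.60 to 23.2 CPM (median 19.7) in TG, and a log2 fold change of -1.34 ± 0.29 (edgeR adjusted p = 0.00067). Sedentary females overlapped, with 13.3 to 54.6 CPM (median 31.2) in nTG and 10.3 to 36.5 CPM (median 14.3) in TG. The log2 fold change there was -0.99 ± 0.27 (edgeR adjusted p = 0.018), and it was no longer called without nTG sedentary female 5 or 6 (highest adjusted p = 0.054) or in a fit of those groups alone (adjusted p = 0.082).

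In trained males the groups overlapped, from 15.1 to 54.9 CPM (median 35.7) in nTG and from 10.96 to 35.5 CPM (median 19.7) in TG, and the log2 fold change of -0.57 ± 0.26 missed the threshold (edgeR adjusted p = 0.14). The mean over the 4 strata was -0.996 ± 0.14 (edgeR adjusted p = 1.4e-08). No interaction of genotype with training or sex passed for Cenpf. Its changes with training missed the threshold in all 4 pairs of groups, from -0.05 to 0.45 on the log2 scale. Of 7 cardiomyocyte markers, 5 were called lower and 1 higher in TG in the mean of the 4 strata, with a median log2 fold change of -0.11. Their summed CPM had a lower mean in TG in sedentary males only, and their part in the fall of Cenpf was not tested.

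**Figure D2:**
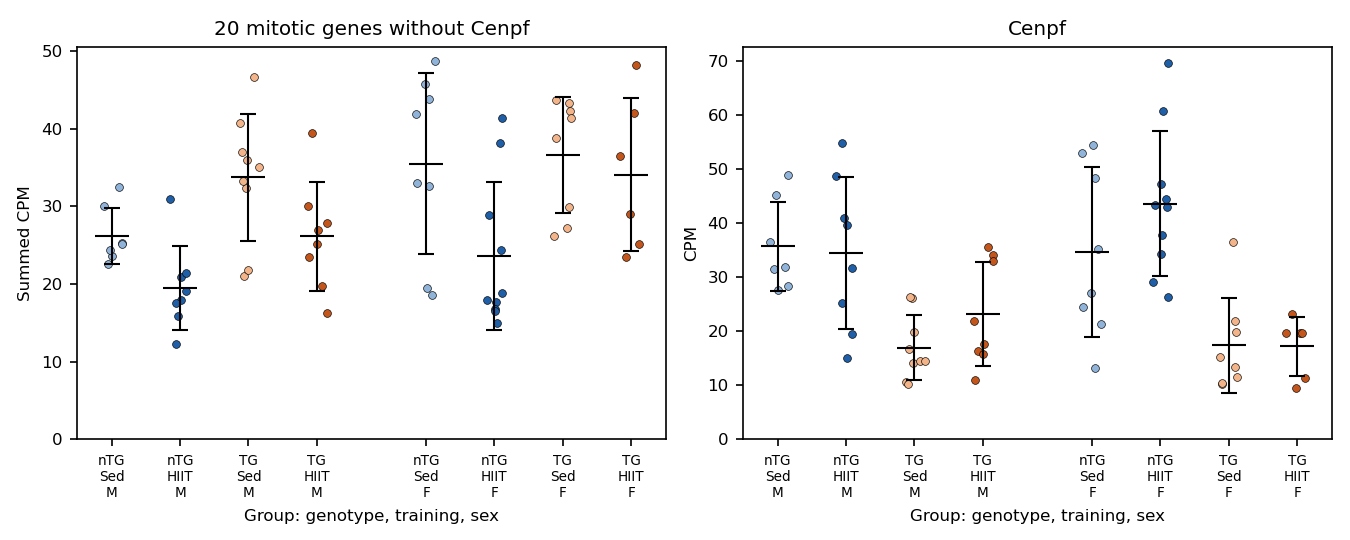
Left, summed CPM of the 20 mitotic genes other than Cenpf, and right, CPM of Cenpf, in each library (points) of the 8 groups, with mean and SD (bars). The TG groups lie low for Cenpf, and the nTG trained groups lie low for the other mitotic genes.

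The other mitotic genes had higher estimates in TG hearts. In the mean of the 4 strata, 16 of 42 members were called by edgeR (38.1%), near the 39% called among all genes, and this share is no result about the members. By direction, 15 were higher, against 18.5% of all genes, and only Cenpf was lower, against 20.5%. The 21 mitotic genes gave 13 of the 16 calls, and the other 21 members gave 3. As this split was made after the values were seen, it describes the members and tests nothing. The median log2 fold change was 0.32 over the mitotic genes and 0.07 over the G1, S and replication members, against 0.01 over all genes tested. TG was higher than nTG in 4 of 4 strata for 14 members and in 3 of 4 for 19 others. Ccnd2, Mcm2 and Cenpf were lower in TG in all 4, and such directions were not counted over all genes.

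Among chromosome and spindle genes, Top2a rose by 0.50 ± 0.14 log2 units in the mean of the strata (edgeR adjusted p = 0.0028). Birc5, the survivin subunit of the chromosomal passenger complex, rose by 0.42 ± 0.14 (edgeR adjusted p = 0.012). Mki67 rose by 0.38 ± 0.13 (edgeR adjusted p = 0.013). Nusap1 and Tpx2, both microtubule-associated spindle proteins, rose by 0.30 ± 0.10 and 0.34 ± 0.12. Kif11, Cenpe, Bub1b and Aurkb had estimates of 0.20 to 0.34 that missed the threshold. Of the genes that finish division, Anln, which scaffolds the contractile ring, rose by 0.36 ± 0.10 (edgeR adjusted p = 0.0020), Kif20a by 0.26 ± 0.09 and Prc1, the bundler of midzone microtubules, by 0.37 ± 0.15. Ect2, the activator of RhoA at the cell equator, had 0.23 ± 0.13 and was not called.

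Of G2/M control, the kinases Aurka and Plk1 rose by 0.32 ± 0.10 and 0.38 ± 0.14 in the mean of the strata. Cyclin A2, Ccna2, rose by 0.36 ± 0.14, and the transcription factor Foxm1 by 0.28 ± 0.12. Cdc20, Ccnb2 and Cdk1 had estimates of 0.19 to 0.41 and were not called. Calls of Ccna2, Foxm1 and Prc1 were marginal: they held in 49, 42 and 37 of 64 fits that left out 1 library each.

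Fewer replication genes were called. Mcm3 rose by 0.18 ± 0.05 (edgeR adjusted p = 0.0042) and Mcm6 by 0.10 ± 0.04 in the mean of the strata, and Tk1, which salvages thymidine, by 0.14 ± 0.05. Pcna was at -0.02 ± 0.03 and Rrm2, a subunit of ribonucleotide reductase, at -0.01 ± 0.08. Ccnd1 and Ccnd2, the most abundant members, were at 0.12 ± 0.06 and -0.10 ± 0.04 and missed the threshold (edgeR adjusted p = 0.073 and 0.065). Ccnd1 had medians of 82.8 to 100.3 CPM and Ccnd2 of 185 to 232 CPM over the 8 groups, and the groups overlapped. Pcna had medians of 11.4 to 12.7 CPM. The members not yet named, E2f1, Ccne1, Ccne2 and Cdk2 of G1/S control, Mcm5, Mcm7, Cdc6, Cdt1 and Cdc45 of licensing and the helicase, Rrm1, the large ribonucleotide reductase subunit, and Uhrf1, which keeps DNA methylation through replication, had estimates from -0.12 (Cdc45) to 0.20 (E2f1) and were not called.

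**Figure D3:**
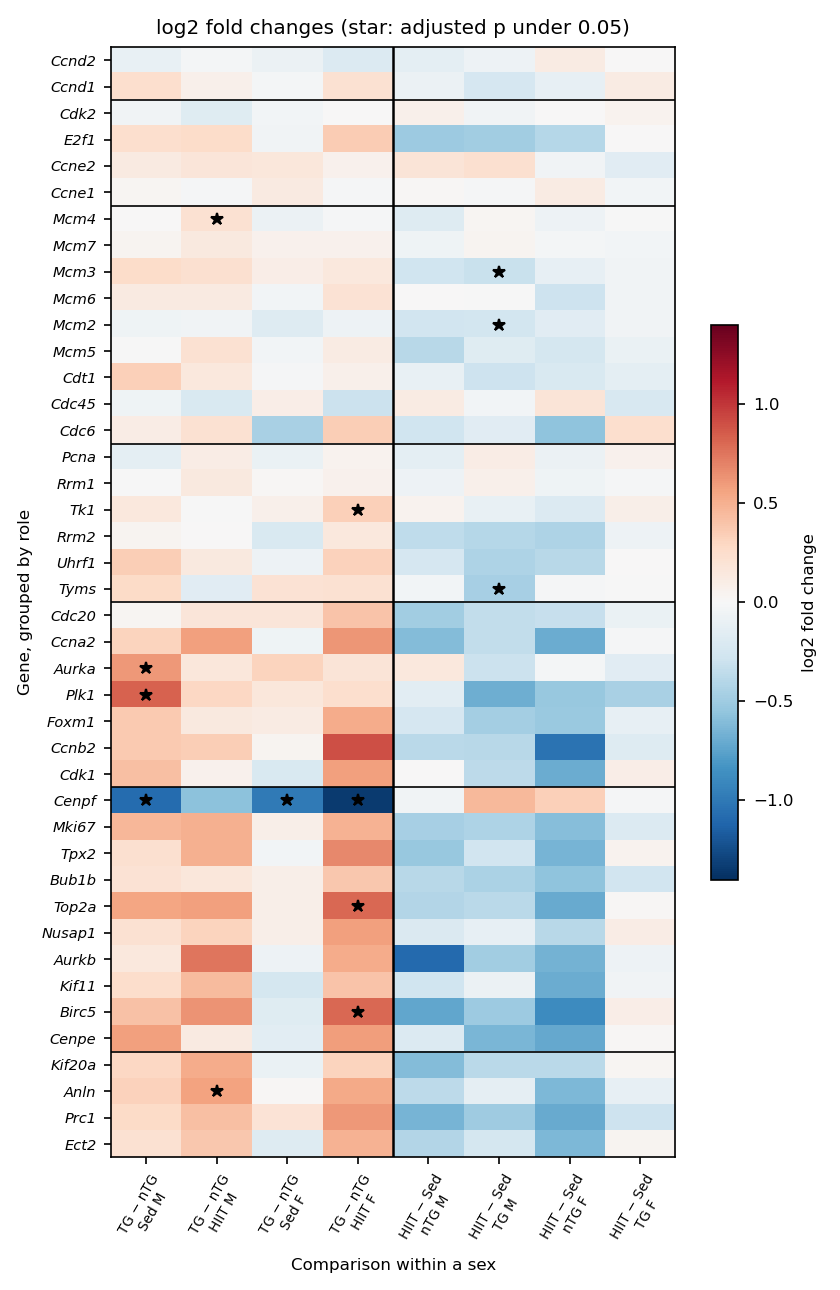
log2 fold change (colour) of the 42 genes (rows, grouped by role) in the 8 comparisons within a sex (columns), with a star for an adjusted p under 0.05. The Cenpf row is blue in the 4 genotype columns, most other mitotic rows are red in 3 of them and split in sedentary females, and the columns for training in nTG mice and TG males are mostly blue.

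Within single strata few members passed. In sedentary males 3 did (7.14%, against 20.6% of all genes), with 2 higher and 1 lower (9.39% and 11.2% of all genes). Aurka was at 0.376 to 1.03 CPM (median 0.676) in nTG and 0.761 to 1.44 CPM (median 1.04) in TG, a rise of 0.61 ± 0.19 log2 units (edgeR adjusted p = 0.016). Plk1 was at 0.165 to 0.918 CPM (median 0.338) and 0.347 to 1.09 CPM (median 0.739), a rise of 0.83 ± 0.29 (edgeR adjusted p = 0.033). Both genes overlapped between the groups. Without nTG sedentary male 6 Aurka was not called (adjusted p = 0.052), and Plk1 was called in 9 of 16 fits that left out 1 library. The median log2 fold change was 0.22 over members, with 34 of 42 positive, and -0.01 over all genes.

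In trained males 2 members rose, against 14% of all genes called, 5.65% higher and 8.31% lower. Mcm4 was at 4.45 to 7.08 CPM (median 6.08) in nTG and at 6.23 to 7.90 CPM (median 7.06) in TG, a rise of 0.21 ± 0.07 (edgeR adjusted p = 0.037). Anln was at 0.763 to 1.83 CPM (median 1.12) and at 1.396 to 1.87 CPM (median 1.71), a rise of 0.57 ± 0.19 (edgeR adjusted p = 0.041). The groups overlapped in both genes, with 4 of 8 TG libraries above the highest nTG library for Mcm4 and 2 of 8 for Anln. In the same comparison 5 of 6 red cell markers were called lower in TG, with a median log2 fold change of -1.22, while 4 of 7 macrophage markers (median 0.37) and 3 of 7 fibroblast markers (median 0.41) were called higher, and their part was not tested. Leaving out single libraries ended the call of Anln in 11 of 16 fits and that of Mcm4 in 7 of 16. Mcm4 was also not called in a fit of only these groups (edgeR adjusted p = 0.086) or by limma voom (adjusted p = 0.053).

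In trained females 4 members passed, against 14.8% of all genes, with 3 higher and Cenpf lower (5.37% and 9.43% of all genes). Top2a was at 0.839 to 3.55 CPM (median 1.41) in nTG and at 2.42 to 4.37 CPM (median 2.72) in TG, a rise of 0.80 ± 0.28 (edgeR adjusted p = 0.043). Birc5 was at 0.117 to 0.477 CPM (median 0.236) and at 0.343 to 0.633 CPM (median 0.463), a rise of 0.80 ± 0.28 (edgeR adjusted p = 0.043). Tk1 was at 2.76 to 5.07 CPM (median 4.38) and at 4.16 to 6.47 CPM (median 5.43), a rise of 0.34 ± 0.11 (edgeR adjusted p = 0.026). The ranges of all 3 overlapped, the upper nTG libraries reaching into the TG range. These calls were fragile: of 16 fits that left out 1 library, Top2a was called in 6, Birc5 in 4 and Tk1 in 11. A fit of only these groups ended the calls of Tk1 and Top2a, and a block for replicate number those of Top2a and Birc5. Without nTG trained female 2, the highest library of its group for 24 of 42 members, 9 members were called.

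In sedentary females only Cenpf was called, against 4.37% of all genes, 1.58% higher and 2.78% lower. The median log2 fold change of the members was -0.03, with 19 positive and 23 negative. Mki67, which passed in no single stratum (edgeR adjusted p of 0.20 to 0.93), had medians of 7.41 CPM in nTG (5.85 to 9.41) and 10.9 CPM in TG (5.11 to 14.5) sedentary males. Trained males had 4.92 CPM in nTG (2.93 to 9.37) and 7.36 CPM in TG (3.56 to 12.7). Sedentary females had 11.6 CPM in nTG (4.07 to 15.6) and 12.8 CPM in TG (7.40 to 14.3), and trained females 5.25 CPM in nTG (3.49 to 14.1) and 9.67 CPM in TG (6.59 to 15.3). The median of sedentary nTG females lay within the range of the TG medians, and all 4 pairs overlapped. The genotype difference between the sexes in sedentary mice was tested itself and gave 0 calls among members and all genes (0% called, edgeR), with 0 members and 8.7% of all genes at an unadjusted p under 0.05.

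**Figure D4:**
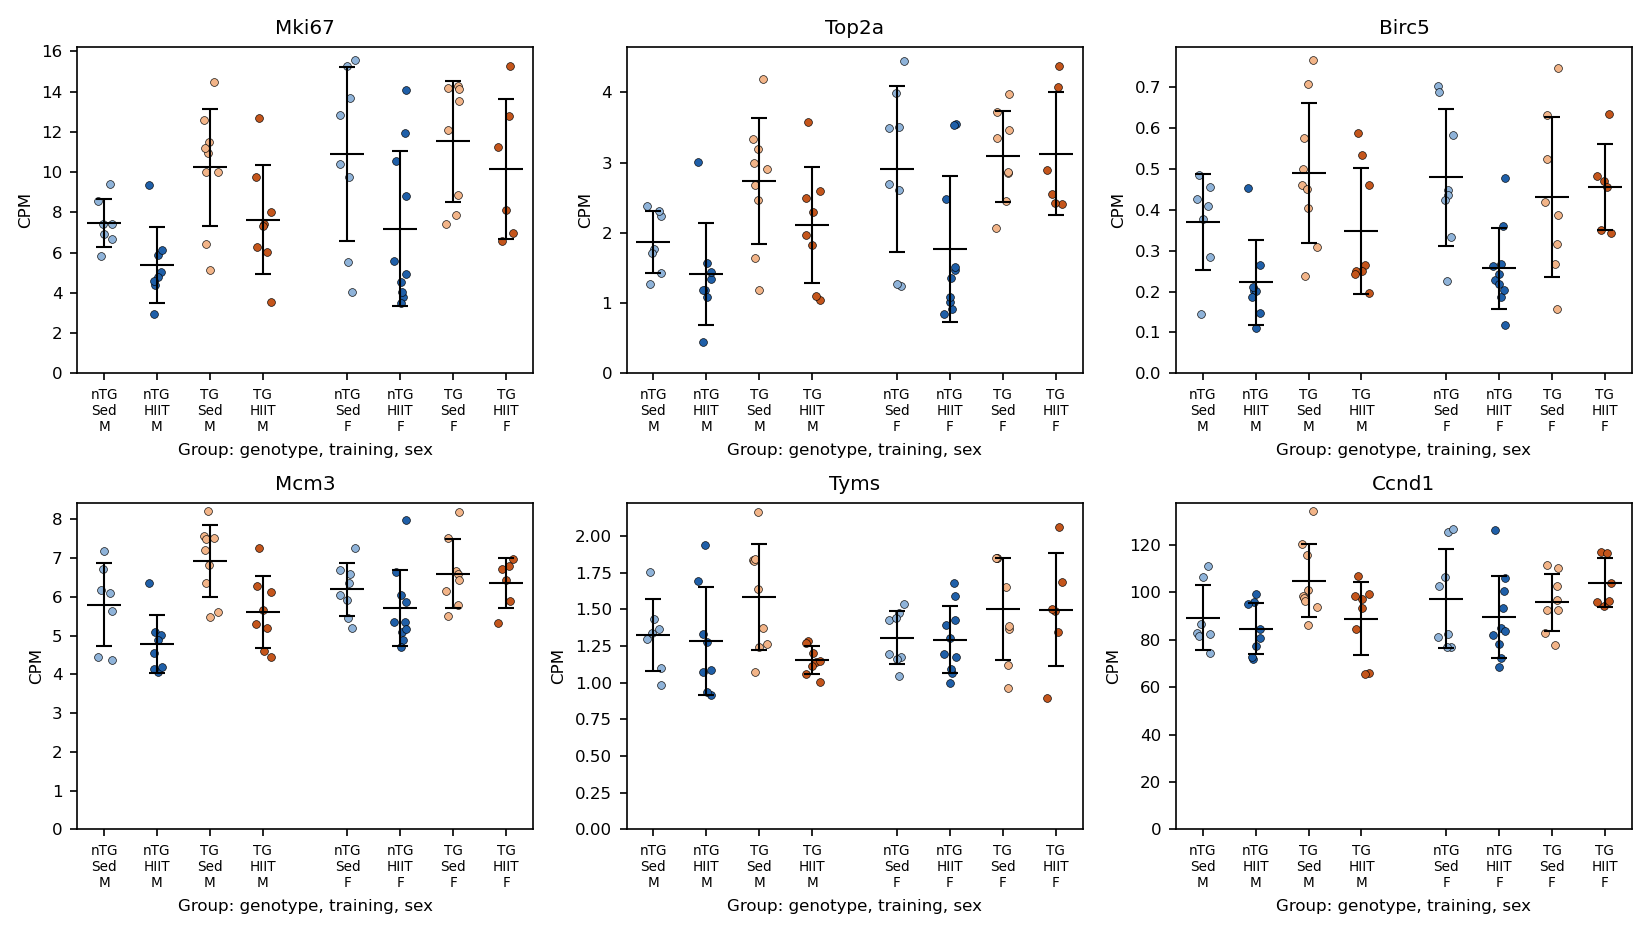
CPM of 6 genes in each library (points) of the 8 groups, with mean and SD (bars). Groups that differ in 1 factor overlap in every panel, and the lowest values of Mki67, Top2a and Birc5 are in nTG trained males.

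With training most estimates were negative. In TG males 3 members fell and none rose, against 18% of all genes called, 10.3% higher and 7.6% lower. Tyms, thymidylate synthase, was at 1.07 to 2.16 CPM (median 1.64) in sedentary and at 1.00 to 1.29 CPM (median 1.15) in trained TG males, and fell by 0.46 ± 0.15 log2 units (edgeR adjusted p = 0.023). Mcm3 was at 5.49 to 8.22 CPM (median 7.21) and at 4.44 to 7.26 CPM (median 5.48), and fell by 0.31 ± 0.10 (edgeR adjusted p = 0.029). Mcm2 was at 8.82 to 12.6 CPM (median 9.36) and at 6.51 to 9.17 CPM (median 8.27), and fell by 0.25 ± 0.09 (edgeR adjusted p = 0.037). For Mcm2, 7 of 8 trained hearts lay below the lowest sedentary heart, against 4 of 8 for Mcm3 and 2 of 8 for Tyms, and the groups overlapped in all 3 genes.

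The count in TG males depended on single hearts. TG trained male 4 was the highest of its group for 27 of 42 members, and without it 11 members were called: Cdc20, Mcm2, Mcm3, Rrm2, Tyms, Bub1b, Plk1, Cenpe, E2f1, Foxm1 and Uhrf1. Without TG trained male 1, 2, 3 or 7, 1 was called, and without TG sedentary male 8, 8 were. Of the 17 fits that left out 1 library, Tyms was lost in 1, without TG sedentary male 3 (adjusted p = 0.056), while Mcm2 and Mcm3 were each called in 11. With all libraries, 36 of 42 members had a negative estimate, and the median was -0.28 against 0.00 over all genes.

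In nTG females no member passed (0.148% of all genes did), yet 23 of 42 were at an unadjusted p under 0.05, all lower in trained hearts, against 14.2% of all genes in either direction and 6.17% lower. Of the 21 mitotic genes 18 were among them, and of the other members 5. Mcm6 came nearest to the threshold at -0.29 ± 0.07 log2 units (edgeR adjusted p = 0.059). Kif11, the kinesin that pushes spindle poles apart, was at -0.70 ± 0.19, Anln at -0.63 ± 0.18, Birc5 at -0.89 ± 0.26 and Mki67 at -0.60 ± 0.24 (edgeR adjusted p of 0.10 to 0.23). Summed over the 20 mitotic genes other than Cenpf, nTG females had a median of 37.4 CPM when sedentary (18.6 to 48.7 CPM) and of 18.4 CPM when trained (15.02 to 41.4 CPM). The split into mitotic and other members and the sum are descriptions over genes chosen with the values known.

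In nTG males no member and no gene passed (0% called, edgeR), and 14 members were at an unadjusted p under 0.05, all lower in trained hearts, against 5.91% of all genes in either direction and 2.97% lower. Kif20a at -0.61 ± 0.20 and Mcm2 at -0.27 ± 0.09 were among them. The mitotic sum without Cenpf had medians of 25.1 CPM (22.5 to 32.4) in sedentary and 18.5 CPM (12.3 to 31.0) in trained nTG males. The 31.0 CPM belong to nTG trained male 3, the highest of its group for 20 of 42 members, and the next heart was at 21.4 CPM.

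In TG females no member and no gene was called for training (0%, edgeR), and 0 members were at an unadjusted p under 0.05, against 3.58% of all genes. The median log2 fold change was -0.03, and the mitotic sum had medians of 40.1 CPM in sedentary and 32.8 CPM in trained hearts (26.2 to 43.7 and 23.5 to 48.2 CPM). The interaction of genotype with training in females called no member and no gene (0%, edgeR), with 5 members, 4 positive, among them Birc5 at 0.97 ± 0.39 and Kif11 at 0.65 ± 0.28, and 1 negative, Cdc45 at -0.40 ± 0.20, and 6.46% of all genes at an unadjusted p under 0.05. In males the same interaction called none (0%), with 2 members, Pcna and Mcm4, against 14.8% of all genes at that level. The training effect of TG males and females did not differ beyond the threshold for any member (0% of all genes called), with Ccnd1 and Tyms at an unadjusted p under 0.05 against 18.1% of all genes. Over the 4 pairs of groups, trained hearts were lower in 4 of 4 for 17 members and in 3 of 4 for 16, which was not counted over all genes. These pairs use the same groups as the comparisons of genotype, so both patterns share their libraries.

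Female and male hearts were compared in sedentary nTG mice. No member passed, against 2.22% of all genes, and 10 were at an unadjusted p under 0.05, all higher in females, against 15.2% of all genes in either direction and 6.89% higher. Mcm6 was nearest at 0.23 ± 0.08 (edgeR adjusted p = 0.084), and Mki67 was at 0.54 ± 0.26 and Top2a at 0.63 ± 0.29. Females spanned a wider range, 4.07 to 15.6 CPM for Mki67 against 5.85 to 9.41 CPM in males. Macrophage markers were at an unadjusted p under 0.05 and higher in females for 6 of 7 (median log2 fold change 0.32, none called), fibroblast markers for 4 of 7 (median 0.39, 1 called) and adipocyte markers for 2 of 2 (median 1.58, none called), and their part was not tested. As sex follows library order, the source of the difference cannot be told apart.

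Many members peaked in the same heart. One library was the highest of its group for 27 of 42 members in TG trained males, 24 in nTG trained females, 22 in nTG sedentary females, 21 in TG trained females, 20 in nTG trained males, 17 in nTG sedentary males and 14 in TG sedentary males. In TG sedentary females no library led more than 12. At the other end, TG trained male 1 was the lowest of its group for 21 members and nTG sedentary female 2 for 19. TG trained male 4 also held the highest sums of its group for fibroblast markers (1548 CPM, group median 799) and macrophage markers (367 CPM, group median 240), and their part in its member levels was not tested.

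Of 76 further cell cycle genes, 19 were called in the mean of the 4 genotype strata, 9 higher and 10 lower, a smaller share than the 39% called among all genes, with a median log2 fold change of 0.02. Other mitosis genes gave 6 higher and 2 lower of 22, with 18 positive estimates and a median of 0.18. Aspm, Racgap1, Kif23, Espl1, Smc2 and Smc4 were the 6 that rose, by 0.17 to 0.52, and are named after their values were seen. The 2 with the smallest p both fell in TG hearts: Pttg1, the securin that guards sister chromatids, by 0.24 ± 0.03 and Cenpa, the histone of the centromere, by 0.36 ± 0.04. Other replication genes gave 1 higher and 4 lower of 26, led by Gmnn, the inhibitor of Cdt1, which fell by 0.52 ± 0.05, and Rpa2, a subunit of the single-strand binding protein, which fell by 0.15 ± 0.03. Of the CDK inhibitors and other G1 kinases, 1 of 10 rose, Cdk6 by 0.39 ± 0.05, and 2 fell, with Cdkn1c, the p57 inhibitor, down by 0.22 ± 0.05. The pocket proteins, E2F and MuvB genes gave 1 higher and 2 lower of 18, with Rbl2 (p130) down by 0.11 ± 0.02 and Lin52 by 0.15 ± 0.04.

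In trained against sedentary TG males, 10 of the 76 were called, 6 higher and 4 lower, against 18% of all genes. Tfdp2, a partner of E2F, rose by 0.35 ± 0.08, and E2f2 fell by 1.15 ± 0.26. Incenp, the scaffold of the passenger complex, fell by 0.42 ± 0.09, and Orc2, of the origin recognition complex, rose by 0.19 ± 0.06. Gmnn, which was lower in TG, rose by 0.29 ± 0.10. Ccnh, the cyclin of the CDK-activating kinase, rose by 0.26 ± 0.06. Ccnd3 and Ube2c were at -0.15 and -0.75 and missed the threshold (edgeR adjusted p = 0.062 and 0.066). No gene of the 76 was called for training in nTG males, nTG females or TG females. Of the 22 other mitosis genes, 22 had negative estimates in nTG males and 20 in nTG females, where 11 were at an unadjusted p under 0.05, all lower, against 6.17% of all genes lower at that level. Of all 16913 genes, 8437 and 8562 had negative estimates in these comparisons.

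Markers of other cell types moved with these comparisons. Fibroblast markers, 7 of 7 in the table, were all higher in TG in the mean of the 4 strata by edgeR, with a median log2 fold change of 0.40, and so were 7 of 7 macrophage markers, with 0.41. In sedentary males, summed macrophage markers were at 166 to 223 CPM in nTG and at 217 to 377 CPM in TG, and fibroblast markers at 643 to 861 and at 711 to 1242 CPM. With training in TG males, 5 of 7 macrophage markers were called lower (7 of 7 estimates negative, 207 to 367 CPM when trained), and so were 2 of 7 fibroblast markers (6 of 7 negative, 683 to 1548 CPM). In trained females, 6 of 7 macrophage and 3 of 7 fibroblast markers were called higher in TG, and all 7 of each had positive estimates with an unadjusted p under 0.05. With training in nTG females none was called, with negative estimates for 7 of 7 fibroblast (median -0.14), 7 of 7 endothelial (median -0.08) and 6 of 7 macrophage markers (median -0.17). No marker of these lists was at 0 in any library, and their part in the members' differences was not tested.

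The 6 red cell and erythroblast markers analysed here ran from 291 to 4626 CPM in TG sedentary males and from 260 to 555 CPM in TG trained males. All 6 fell with training in TG males, with a median of -1.46 on the log2 scale. The median of their summed CPM was 549 in sedentary and 384 in trained TG males. For genotype, 5 of 6 were called lower in TG in trained males (6 of 6 estimates negative) and 3 of 6 in the mean of the 4 strata (5 of 6 negative). In sedentary males 1 was called higher, with 6 of 6 estimates positive and a median of 0.63. The medians of the summed CPM there ran the other way, 549 CPM in TG and 589 CPM in nTG. TG sedentary male 5 held the 4626 CPM, and the marker changes are not given without that heart. Without it 3 members were called for training in TG males, Mcm3, Tyms and Rrm2, with Mcm2 at an adjusted p of 0.051 (edgeR). The count for genotype in trained females, which does not use that library's group, then became 6. Lymphocyte markers summed to at most 9.39 CPM, and none of 5 was called in the mean of the 4 genotype strata. Neutrophil markers summed to at most 23.2 CPM, and 2 of 4 were called lower in TG in that mean (median -0.24) and 1 of 4 in trained females (median -0.70). Endothelial markers summed to 941 to 1206 CPM, with 1 of 7 called lower in TG in the mean of the strata and 2 of 7 lower with training in TG males (median -0.15). Pericyte and smooth muscle markers summed to 1147 to 1723 CPM, with 1 of 7 called lower in TG in the mean of the strata. With training in nTG males none was called, and 4 of 7 were lower at an unadjusted p under 0.05 (median -0.15). The part of these markers in the members' differences was not tested.

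**Figure D5:**
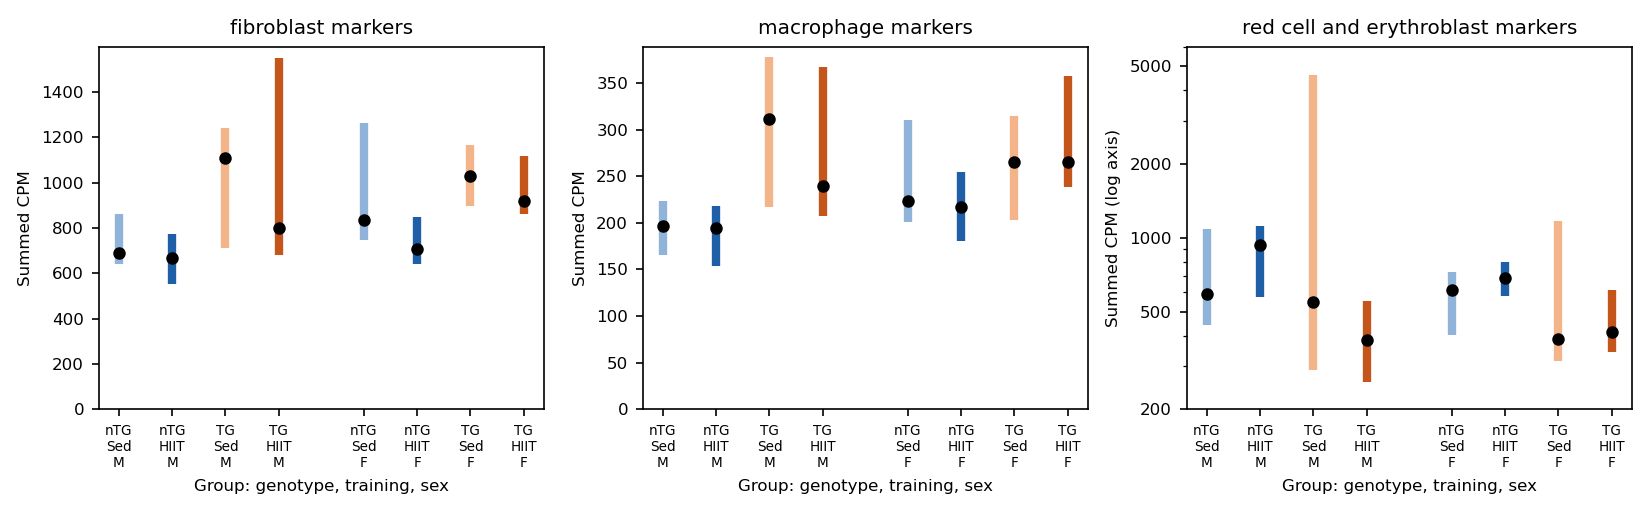
Summed CPM of fibroblast, macrophage, and red cell and erythroblast markers in the 8 groups, as median (point) and range (bar), the last on a log axis. Fibroblast and macrophage medians are higher in each TG group than in the nTG group of the same sex and training, and TG sedentary males reach 4626 CPM of red cell markers.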

How the data were processed

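RNA of 64 mouse hearts was sequenced after ribosomal RNA depletion. The deposited gene table holds raw counts per gene and library, and the deposited lncRNA table holds expected counts, estimated per transcript, of which 45 of 3787 rows had fractional values. The submitters' processing notes name cutadapt 2.3, STAR 2.7.8a, RSEM 1.3.3, FastQC 0.11.8, MultiQC 1.7 and the builds GRCm38 and mm10, without saying which made which table. The members and lists were chosen with earlier results of these data known.

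Gene columns were joined to labels through the lncRNA table by Pearson's r of centred log2 CPM (pseudocount 0.5) over 389 autosomal transcripts with a mean of at least 20 counts in both tables. Symbols came from a list of gene names, which matched 16879 of 16913 identifiers, and exon lengths came from GENCODE M21. Counts were scaled by TMM, filtered with filterByExpr, which kept all genes, and tested with edgeR 4.0.16 (quasi-likelihood F test) in 1 fit with 8 group means, with Benjamini-Hochberg adjustment over all genes and a threshold of 0.05. The mean of the 4 strata weights each stratum alike. Labels call the hearts biological replicates. Replicate numbers did not pair the samples. Precision is set by the spread between mice and, for members with few counts, by the depth.

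Members called within a sex are given in full, with Mki67, Top2a, Ccnd1, Ccnd2 and Pcna, and of other lists the 2 genes with the smallest p. Alternatives were gene columns by name, DESeq2 1.42.0, limma voom 3.58.1 weighted by library quality, scaling by median of ratios, all genes unfiltered, only the groups compared, a replicate block and leaving out each library. The grouping of mitotic genes and their sum without Cenpf were added after the values were seen.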

Additional observations from a re-analysis of the deposited data

Results flagged for a closer look

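In 13 of 192 groups of values (24 genes or role sums in 8 groups), 1 library lay apart from the others of its group, and chance gives about 9.6. nTG trained male 3 was high in 3 of them: Mcm3 at 6.36 CPM (others 4.08 to 5.09), Top2a at 3.01 CPM (others 0.454 to 1.57) and Birc5 at 0.453 CPM (others 0.111 to 0.265). Cenpf was high in TG sedentary female 1 at 36.5 CPM (others 10.3 to 21.96). Aurka was high in TG sedentary female 4 at 1.98 CPM (others 0.727 to 1.03) and in nTG trained female 2 at 1.23 CPM (others 0.626 to 0.934). Plk1 was high in TG trained female 6 at 1.16 CPM (others 0.425 to 0.586) and in TG trained male 4 at 0.894 CPM (others 0.245 to 0.509). Mcm2 was low in TG trained male 1 at 6.51 CPM (others 7.94 to 9.17) and high in TG sedentary male 6 at 12.6 CPM (others 8.82 to 10.1). The summed G1/S control genes were high in TG trained male 8 at 11.8 CPM (others 9.58 to 10.3). The summed DNA synthesis genes were low in TG sedentary male 7 at 31.6 CPM (others 33.9 to 35.3) and in nTG trained male 7 at 28.7 CPM (others 31.3 to 33.3).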

How the results depend on the processing

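With gene columns by name, 0 members were called in each of the 14 comparisons, and 9 gene results changed sign: on the log2 scale Birc5 -0.22, Cenpf 0.25, Tk1 -0.0458 and Top2a -0.21 for genotype in trained females, Mcm4 -0.0245 in trained males, Mcm3 -0.0305 and Nusap1 -0.0054 for the mean of the strata, and Mcm3 0.16 and Tyms 0.12 for training in TG males. Limma voom called 5 members for genotype in sedentary males, 1 in trained males, 8 in trained females and 8 for training in TG males. DESeq2 called 7 in trained females, and gave no adjusted p for 40 members for training in nTG females, 40 for genotype by training in males, 34 for the difference in training between sexes in TG mice and 11 for training in TG males. It also gave none for 7 members for genotype in sedentary females, 4 for genotype in trained males and 4 for sex. A fit of only the groups compared called 1 in trained males, where Mcm4 was lost (adjusted p = 0.086), and 0 in sedentary females. In trained females it called 2 higher and 2 lower, and Tk1 and Top2a were lost (adjusted p = 0.066 and 0.063). Replicate numbers shared by groups did not pair the hearts (at most 1 pair per comparison had r above 0.1). The replicate block called 2 members in trained females, where Top2a and Birc5 were lost, and 14 in the mean of the strata, where Ccna2 and Foxm1 were lost. Leaving out single libraries gave 12 to 20 members for the mean of the strata, 2 to 4 for genotype in sedentary males, 0 to 4 in trained males, 0 to 1 in sedentary females, 1 to 9 in trained females, 1 to 11 for training in TG males, 0 to 2 in nTG females, 0 to 1 for sex, and 0 elsewhere. Over all genes, training in nTG females called 25 by edgeR, 131 by DESeq2, 100 by limma voom, 13 with size factors, 3 with the block and 0 with only those groups; the difference in training between sexes in TG mice called 0, 223 by DESeq2 and 927 by limma voom; genotype by training in males called 0, 13 and 300. Training called no gene in nTG males (4 by DESeq2, 1 by limma voom) and in TG females (0 and 3). Genotype in sedentary females called 739, 1269 by limma voom and 367 with only those groups, and sex 375 and 145. Median-of-ratios scaling called 5 members for genotype in trained females in place of 4. It ended no call of a member given in full. The filter on low counts removed no gene, so the fit without it was the same fit. The column join gave 64 pairs under both of its alternatives. Members with fewer than 20 counts on average, Ccnb2, Birc5 and Cdk1, are limited by depth.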
